A study of Mus musculus with 12 samples.

Results

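H3K4me3, the trimethylated form of lysine 4 on histone H3, was compared between C2C12 cells at day 0 of differentiation and the myotubes formed by day 5. The comparison used the 19206 peaks of the day 0 library and the 26024 peaks of the myotube library on chromosomes 1 to 19 and X, 45230 of the 94584 peaks in the 8 lists of H3K4me3 and MBD2. A peak was shared when it overlapped a peak of the other library by at least 1 bp. A gene was marked when a peak reached to within 1 kb of an annotated transcript start, gained when marked in myotubes alone and lost when marked at day 0 alone. At genes marked in both, breadth was taken as the bases that peaks covered from 5 kb before to 5 kb after the 5′ end. A promoter was said to have widened or narrowed when its breadth differed by 1000 bp or more.

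C2C12 is an established mouse myoblast line. The assay was CUT&RUN: an antibody tethers a nuclease to the modified histone, and the fragments that it cuts free are sequenced. Day 0 cells were taken at the start of differentiation, and the myotubes after 5 days in DMEM with 2% horse serum and penicillin-streptomycin, where mild trypsinization parted them from reserve cells. The 2% horse serum is recorded for the day 0 sample too. Cells of day 1 and the day 5 reserve cells, also profiled for H3K4me3, are given only as side values, and MBD2, a methyl-CpG binding protein, appears where it crosses these promoters. No genetic change is named in the labels, the abbreviated title of the myotube library was read with the help of the design text, and the IgG libraries were not analysed here. Each group is 1 library, so no difference has a replicate check, no p-value is given, and a mark on fewer cells cannot be told apart from less mark per cell.

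H3K4me3 is laid down by the SET1 and MLL methyltransferase complexes around the starts of genes that are transcribed or ready to be. Promoters rich in CpG dinucleotides tend to carry it in many cell types, whereas CpG-poor promoters of tissue genes tend to carry it where the gene is on. When myoblasts withdraw from the cell cycle and fuse, the basic helix-loop-helix factors MyoD and myogenin, together with MEF2 factors, switch on the genes of the contractile apparatus.

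The lists differed in make-up. Peaks covered 41.0 Mb at day 0 and 43.7 Mb in myotubes, with a median width of 1937.5 and 1218 bp. Peaks under 500 bp made up 14.2% of the day 0 list and 25.5% of the myotube list. The median pileup at the summit was 96 fragments at day 0 and 24 in myotubes, and the lowest background coverage 1.47 and 1.22 fragments per base, so the myotube list held more weak and short peaks. The part that this difference had in the results was not tested, and results under equal numbers of peaks are given where they changed. The labels were checked against cell type markers chosen for this work. All 8 myotube markers (Myog, Myh3, Ckm, Acta1, Tnnt3, Mymk, Atp2a1 and Cacna1s) were unmarked at day 0 and marked in myotubes, with a summed breadth of 1116 and 54782 bp. Of 5 proliferation markers, 5 were marked at day 0 and 4 in myotubes, with 18539 and 7222 bp. Pax7, Myf5, Myod1 and Cdh15 were marked in both and Calcr in neither. Of 4 fibroblast markers, 3 were marked in both (12369 and 5601 bp in sum), with Dcn at 0. Of the endothelial markers only Kdr was marked, in both libraries (976 and 522 bp), and of the blood markers only Cd68, in myotubes alone. Of the neuronal markers Nefl was marked in both and Syt1 at day 0 alone (4819 and 1143 bp in sum).

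Most day 0 peaks were found again in myotubes, while the myotube list held many more peaks of its own. Of day 0 peaks 84.3% (exact Clopper-Pearson 95% interval 83.8 to 84.8, counting error only) overlapped a myotube peak, and 15.7% did not. Of myotube peaks 63.7% (63.1 to 64.3) overlapped a day 0 peak, and 36.3%, or 9444 peaks, did not. In bases, 32.2 Mb was covered in both, 78.5% of the day 0 territory and 73.7% of the myotube territory. With the same number of peaks kept in each list, 78.7% of day 0 and 78.9% of myotube peaks were shared, which follows from the equal list lengths, since a like number of peaks was shared from either side. Strong peaks were nearly all shared: with each list split by −log10 q into 4 equal groups, 99.9% of day 0 and 98.9% of myotube peaks in the strongest group overlapped the other list, against 50.8% and 20.6% in the weakest. Wide peaks behaved alike, 43.9% of day 0 peaks under 500 bp and 99.1% of those from 2 to 5 kb being shared.

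**Figure D1:**
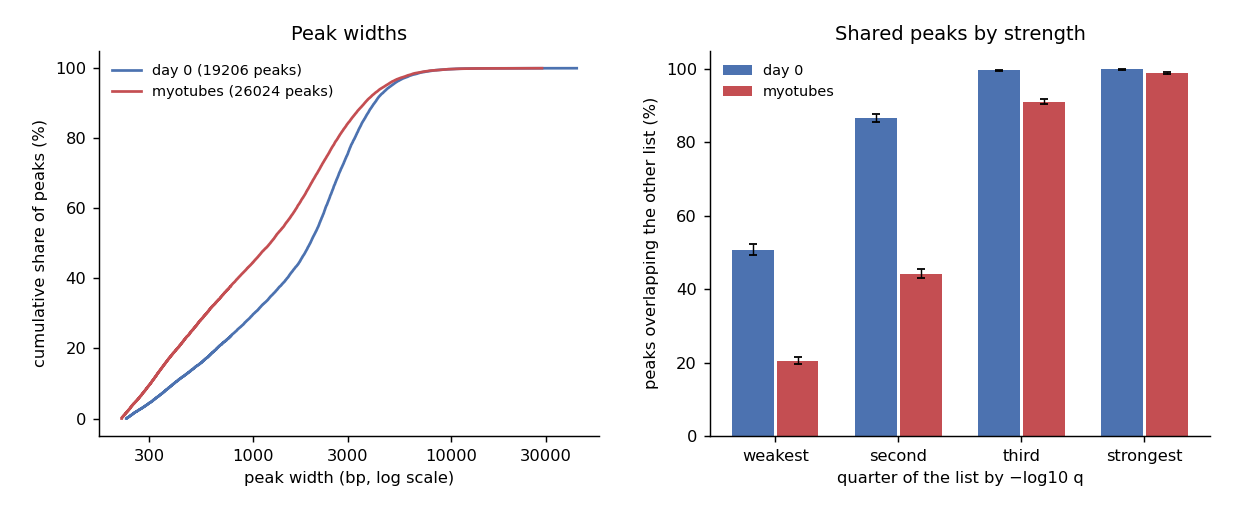
Left, cumulative share of peaks (%) against peak width (bp, log scale) in the day 0 and myotube lists. Right, share of peaks overlapping the other list (%) in 4 equal groups of a list by −log10 q, with exact 95% intervals: the strongest group was shared in 99.9% of day 0 and 98.9% of myotube peaks, the weakest in 50.8% and 20.6%.

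The Hox clusters carried the widest day 0 domains, which myotubes kept in several pieces. At day 0 the widest peak spanned 42837 bp of the Hoxc cluster (chr15:102944697-102987533), and 94.7% of it was covered by 4 myotube peaks. The Hoxa cluster carried 31164 bp (chr6:52210179-52241342), of which 4 myotube peaks covered 90.1%. Hox genes encode homeodomain factors of body position. Of 941 day 0 peaks of 5 kb or more, 23.4% met 2 or more myotube peaks, and a single one, of 6308 bp upstream of Pdgfc, a growth factor gene (chr3:81028266-81034573), met none. The myotube list had 1014 such peaks, of which 12.9% met 2 or more day 0 peaks and 80 met none. The widest of these 80 lay over Myl1, a myosin light chain of fast fibres (16392 bp, chr1:66929492-66945883). Others covered Atp2a1, which pumps calcium back into the sarcoplasmic reticulum (11704 bp, chr7:126455061-126466764), Mybph, a myosin-binding protein (11625 bp), and Myh1, an adult fast myosin heavy chain (10358 bp, chr11:67197372-67207729). A further one, of 13571 bp, lay 3052 bp from the coding gene Josd2 (chr7:44471146-44484716).

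Among 21755 protein-coding genes, 12059 were marked in both libraries, 508 were gained, 343 were lost and 8845 were marked in neither. The gained genes were 5.43% of the 9353 unmarked at day 0, and the lost genes 2.77% of the 12402 marked at day 0. With equal numbers of peaks 362 genes were gained and 524 lost, so the balance between gains and losses turned over. Of the gained genes, 444 had no base covered within 5 kb at day 0, and 108 had a fold enrichment over local background of 20 or more. Fold enrichments are the authors' values and rank peaks within 1 list only.

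Genes of the contractile cell were the clearest group among the gains. The 9 muscle lists were chosen for this work with earlier results of these data known, so their shares describe and do not test. They hold 144 genes. At day 0, 75 of them were unmarked, and 68 of these 75 were gained, beside 5.43% of all unmarked genes. None of the 69 marked genes was lost, and 7 genes stayed unmarked. Gained peaks at these 68 genes were strong and wide within the myotube list: their median fold was 31.3 and their median width 4632.5 bp, against 6.72 and 978.5 bp for all 508 gained genes. They made up 47 of the 108 gains with a fold of 20 or more. With equal numbers of peaks 65 muscle genes were gained and 1 was lost. At day 1, 37 of the 68 already had a promoter peak and in reserve cells 36 did, while 26 had none in either. All these comparisons share the day 0 library.

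**Figure D2:**
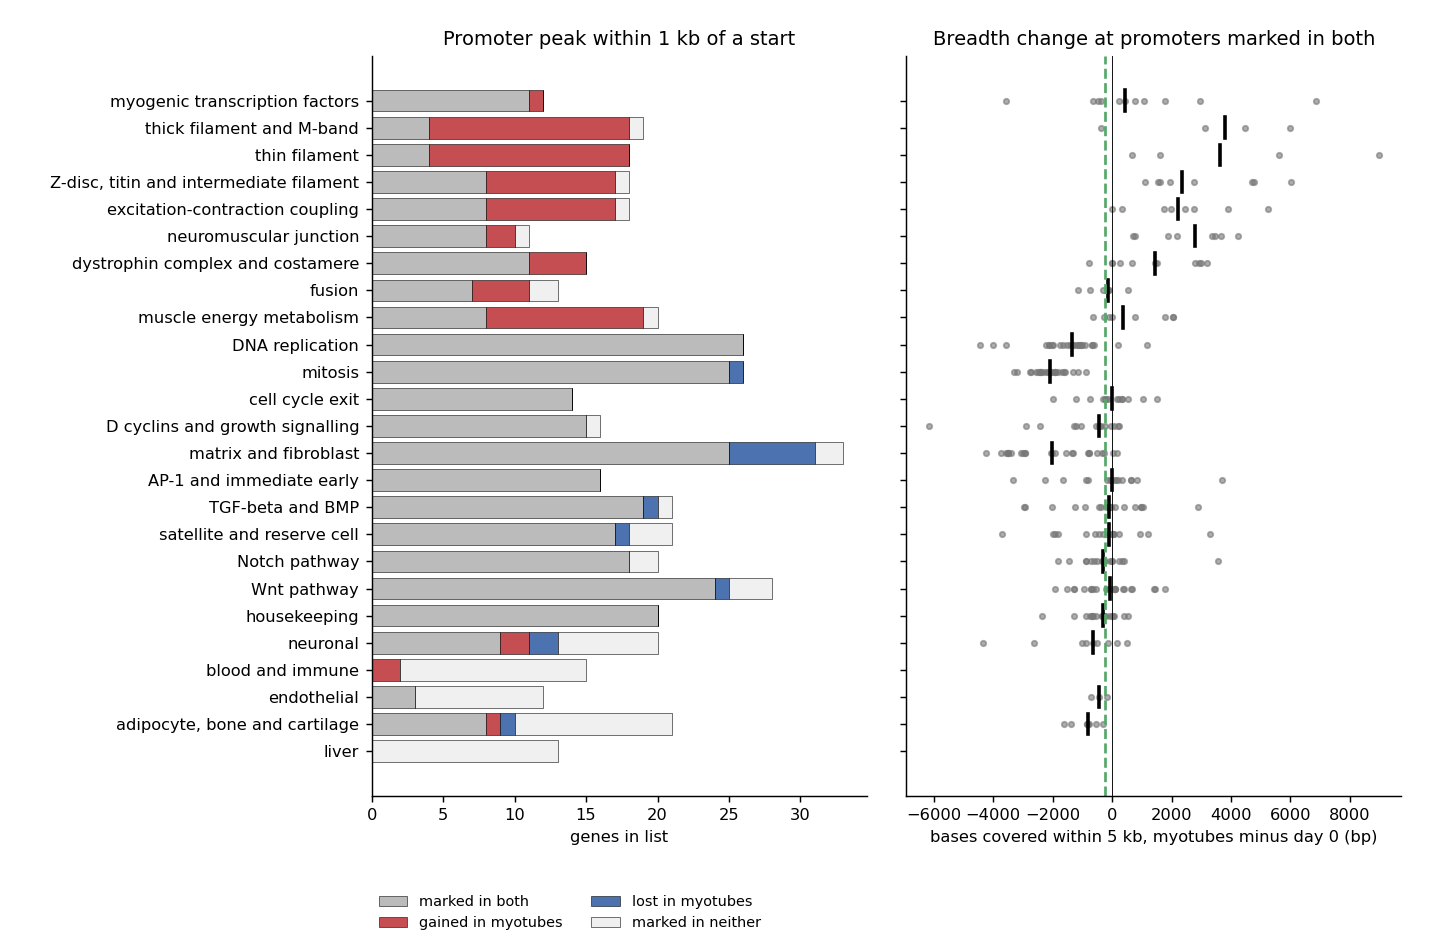
Left, number of genes in each of the 25 gene lists that were marked in both libraries, gained, lost or marked in neither. Right, change of breadth (bp, myotubes minus day 0) of each protein-coding gene marked in both (points) with the list median (black bar) and the median of all such genes (dashed line, -257 bp): sarcomere lists lie to the right, and mitosis, DNA replication and matrix lists to the left.

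Regulators of the muscle lineage were marked before differentiation, with 1 exception. Of 12 myogenic transcription factors 11 were marked at day 0. Myog, which encodes myogenin, was the exception: its breadth was 0, 2673, 5316 and 2364 bp in the day 0, day 1, myotube and reserve cell libraries, an order kept below wherever 4 values are given. The myotube peak at Myog was 4706 bp wide (chr1:134289203-134293908), over a plus-strand gene that starts at 134289989. Myod1, the myoblast determination factor, had 4776, 3846, 7748 and 3943 bp and so widened. Nearly all of the added coverage lay upstream of the start, where coverage was 1495 bp at day 0 and 4463 in myotubes. Myf5, a determination factor of proliferating myoblasts, narrowed instead, from 8767 to 5182 bp. Its neighbour Myf6, a factor of later muscle fibres, had 5638 and 5155 bp, less than the 1000 bp taken as a change.

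Thick filament and M-band genes, which build and anchor the myosin filaments, were gained at 14 of 15 unmarked genes. Myom3, an M-band protein that ties myosin filaments together, had 0, 2400, 4816 and 1719 bp, with a myotube fold of 63.4. Myom2, its relative, had 0, 3094, 6762 and 3016 bp. Trim63, a ubiquitin ligase bound to the M-band, had 0, 1302, 7158 and 1729 bp. Myotubes were thus highest and day 0 lowest at all 3. Embryonic myosin heavy chain, Myh3, had 0 bp at day 0 and 8214 in myotubes. Thin filament genes were gained at 14 of 14 unmarked genes. Slow troponin T, Tnnt1, had 0, 3596, 6117 and 4367 bp, and Acta1, skeletal α-actin, 0, 3967, 9211 and 2007 bp. Klhl41, which stabilises the thin filament protein nebulin, had 241, 3862, 6883 and 2626 bp. Tnni1, slow troponin I, was gained through another start than its most upstream one: the promoter peak was 9374 bp wide while coverage about the 5′ end was 1323 bp at day 0 and 1664 in myotubes.

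The other muscle groups followed the same course with more genes marked beforehand. In the Z-disc, titin and intermediate filament list 9 of 10 unmarked genes were gained, led by Xirp1 (731 and 6234 bp), an actin-binding protein of developing myofibrils, and by Tcap (0 and 4250 bp), the titin cap. Of the excitation-contraction coupling list, which holds calcium channels, pumps and their partners, 9 of 10 were gained. Stac3, an adaptor of the calcium channel, went from 0 to 2479 bp, and Cacna1s, the channel's voltage-sensing subunit, from 248 to 6322 bp. Of the neuromuscular junction list 2 of 3 were gained, among them Chrng, the fetal γ subunit of the acetylcholine receptor, with 0 bp at day 0 and 7181 in myotubes. The dystrophin complex gained 4 of 4, including Cav3, muscle caveolin (0 and 4963 bp). Of the fusion list 4 of 6 were gained. Mymk, the fusogen myomaker, had 0, 3574, 8046 and 2579 bp. Mymx, its partner myomixer, already had 2160 bp downstream of its start at day 0 and had 5456 in myotubes. Of the muscle energy list 11 of 12 were gained, but that list also holds muscle genes of other roles. Among these were Hfe2, the co-receptor hemojuvelin, with 0 and 6500 bp, and Art1, an ADP-ribosyltransferase, with 0 and 7421 bp. Ckm, muscle creatine kinase, was gained through an inner start, with 868 bp about the 5′ end at day 0 and 1048 in myotubes. The 7 muscle genes without a peak in either library included Myh2, a fast myosin heavy chain, Sln, the calcium pump regulator sarcolipin, and Chrne, the adult ε subunit of the acetylcholine receptor. The other 4 were Myoz1, Fbp2, Adgrb3 and Nphs1, and all 7 were picked out after their values were seen.

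The 5′ ends of the genes gained with the highest folds were poor in CpG. Over all 21748 protein-coding promoters with a sequence, taken from 250 bases before to 50 after the 5′ end, the median ratio of observed to expected CpG was 0.53. It was 0.75 at promoters marked in both, 0.32 at gained promoters, 0.25 at the 108 gained with a fold of 20 or more, 0.23 at the 68 gained muscle genes, 0.43 at lost and 0.20 at unmarked promoters. The E-box CAGCTG, a form of CANNTG that is a textbook binding sequence of MyoD and myogenin, was in 15.4% of all promoters on either strand. It was in 26.4% of gained promoters, 41.7% of those with a fold of 20 or more and 51.5% of gained muscle promoters. The MEF2 motif was in 2.85% of all promoters, 8.66% of gained ones and 23.5% of gained muscle promoters. At promoters marked in neither library CAGCTG was in 16.0% and the MEF2 motif in 4.13%. At gains with a fold under 5 the shares were 21.3% and 1.18%. These shares describe the windows, and a match is not a binding site. Each window lies at the most upstream 5′ end, whereas a gene could be gained at any annotated start. A myotube peak covered that 5′ end at 301 of the 508 gained genes (59.3%). Some windows, as at Ckm and Tnni1, are thus not those of the start that gained the peak.

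The 250 bases upstream of the start are shown for the 4 gained muscle genes of highest fold whose RefSeq promoter entry starts within 100 bp of the annotated 5′ end (RefSeq table on GRCm38.p6, 5′ to 3′ on the gene's strand), so that the letters behind these shares can be seen. Capitals mark CANNTG, the MEF2 motif, CATTCC (the muscle CAT element) and TATAAA, on either strand. Over all windows of this length CANNTG was in 63.9%, the MEF2 motif in 2.69%, CATTCC in 11.6% and TATAAA in 11.5%. The windows are Myom3 (chr4:135759465-135759714, plus strand), Trim63 (chr4:134314870-134315119, plus), Klhl41 (chr2:69669870-69670119, plus) and Lmod2, which encodes the thin filament protein leiomodin (chr6:24597521-24597770, plus).
Myom3: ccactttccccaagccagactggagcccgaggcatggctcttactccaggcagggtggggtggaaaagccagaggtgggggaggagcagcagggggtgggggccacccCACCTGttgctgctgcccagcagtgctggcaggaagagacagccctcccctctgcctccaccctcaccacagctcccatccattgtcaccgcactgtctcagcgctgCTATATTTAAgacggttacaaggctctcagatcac
Trim63: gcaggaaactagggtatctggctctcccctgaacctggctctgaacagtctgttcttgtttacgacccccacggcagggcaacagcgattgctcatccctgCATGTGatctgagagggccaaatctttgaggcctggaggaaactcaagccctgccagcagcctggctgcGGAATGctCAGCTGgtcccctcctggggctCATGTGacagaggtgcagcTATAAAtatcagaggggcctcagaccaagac
Klhl41: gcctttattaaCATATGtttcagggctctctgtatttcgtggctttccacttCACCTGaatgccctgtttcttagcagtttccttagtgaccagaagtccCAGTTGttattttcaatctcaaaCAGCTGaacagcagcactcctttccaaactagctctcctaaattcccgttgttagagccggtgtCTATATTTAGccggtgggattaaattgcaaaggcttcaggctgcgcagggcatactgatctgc
Lmod2: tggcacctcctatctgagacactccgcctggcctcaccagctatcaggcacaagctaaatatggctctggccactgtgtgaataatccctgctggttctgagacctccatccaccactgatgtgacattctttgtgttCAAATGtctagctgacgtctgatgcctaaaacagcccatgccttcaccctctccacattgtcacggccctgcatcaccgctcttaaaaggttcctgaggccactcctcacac

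Each of the 4 windows held CANNTG, from 1 match in Myom3 and Lmod2 to 3 in Trim63 and 4 in Klhl41. The MEF2 motif was in Myom3 and Klhl41, and CATTCC and TATAAA were in Trim63 alone. Lmod2 had 0 bp of H3K4me3 within 5 kb at day 0 and 5765 in myotubes.

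Beyond the chosen lists, the 10 strongest gains with nothing within 5 kb at day 0 held 8 genes of the muscle lists, themselves chosen with earlier results known. The first, Ip6k3, an inositol phosphate kinase, had a fold of 75.6 and breadths of 0, 840, 5380 and 2165 bp. The other outside the lists, Pgm5, a protein of muscle adhesion sites related to phosphoglucomutase, had 0, 326, 5868 and 1632 bp. The list genes among the 10 included Myom3, Hfe2, Tnnt1, Trim63, Stac3, Myom2 and Lmod2. Of 58 unmarked genes of the lists of other lineages, 5 were gained, near the 5.43% of all unmarked genes, with folds of at most 5.85 and peaks of at most 1145 bp: Nefh, Elavl3, Tal1, Cd68 and Alpl. At Cd68 a region of 4752 bp within 5 kb was already covered at day 0, beyond 1 kb of its starts. No liver gene was marked in either library.

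Losses were fewer than gains with the lists as deposited. Of the 343 lost genes, 43 had a day 0 fold of 20 or more, and 209 were still marked at day 1. Matrix genes stood first among the lists with 6 losses of 31 marked genes, beside 2.77% of all marked genes. Col6a3, a chain of collagen VI, had 5598, 4579, 355 and 2416 bp. Mmp2, a gelatin-cleaving protease, had 1741, 2474, 0 and 2225 bp. Loxl2, a lysyl oxidase relative, had 1918, 2308, 0 and 0 bp. Myotubes were thus the lowest at Col6a3 and Mmp2, and tied with reserve cells at Loxl2. With a limit of no peak within 3 kb, 4 matrix genes were lost. Ccnb2, cyclin B2, was the single loss among 26 mitosis genes, with 2277, 1355, 0 and 1111 bp (day 0 peak chr9:70419861-70422137). Cd34, a surface protein of satellite cells, had 1576, 1351, 0 and 1022 bp.

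The 10 strongest losses with nothing left within 5 kb covered genes of many kinds. Ptprn, a receptor-type phosphatase of secretory granules, had 2060 bp at day 0 and 0 in myotubes, and the water channel Aqp1 had 4479 and 0 bp. Actg2, smooth muscle γ-actin, had 4631 and 0 bp, Has1, a hyaluronan synthase, 4396 and 0 bp, and the chemokine Cxcl5 3507 and 0 bp. Fbln1 and Col5a3, both of the matrix, had 2666 and 2330 bp at day 0, and Ada, adenosine deaminase, 1317 bp. Lck, a kinase of T cells, lost a peak of 2038 bp at an inner start. Reserve cells had 0 bp at Ptprn and Aqp1 but 2219 bp at Col5a3 and 1111 bp at Ccnb2, the remaining member of the 10.

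Where both libraries were marked, breadth shifted down as a whole. The median breadth of the 12059 genes was 2845 bp at day 0 and 2535 in myotubes, a median change of -257 bp (95% interval -272 to -247, across genes) or -0.15 on the log2 scale. By the 1000 bp limit 966 promoters (8.01%) widened and 1527 (12.7%) narrowed. When myotube breadths were scaled so that the median ratio was 1, 1562 widened and 984 narrowed, so the balance of the 2 directions turned on the scale. The list results are therefore given beside the overall median. Just inside the limits, Crebl2 widened by 1001 bp and Atf2 changed by -1000 bp, while Hspa1a at 994 bp and Gsto1 at -999 bp fell just outside. For 314 genes neither library had a base within 5 kb of the 5′ end, the marked start lying elsewhere, and for 70 genes 1 of the libraries had none.

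**Figure D3:**
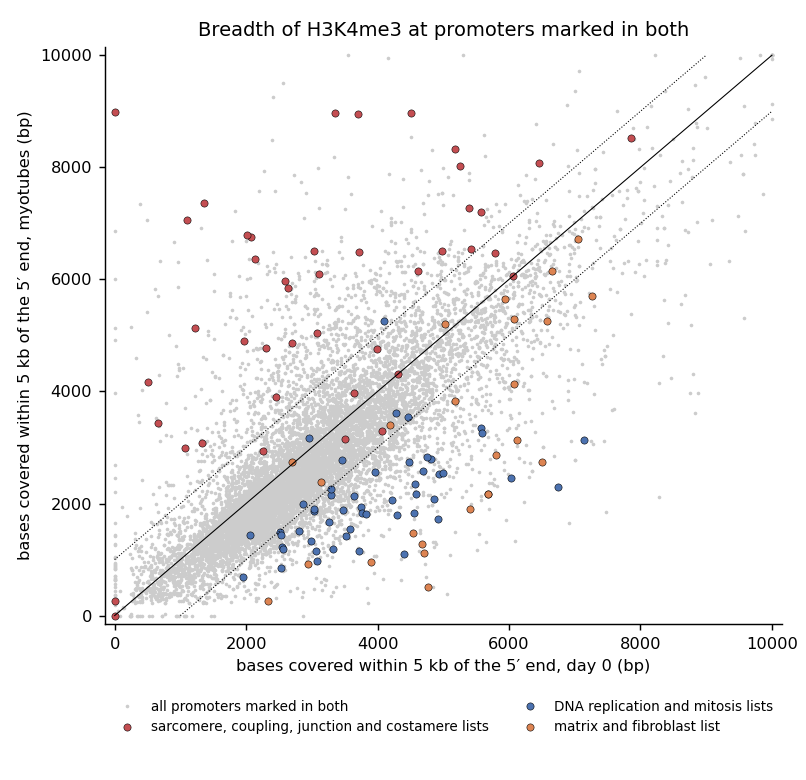
Bases covered within 5 kb of the 5′ end in myotubes against day 0 (bp) for the 12059 protein-coding genes marked in both (grey), with the 43 genes of 6 sarcomere, coupling, junction and costamere lists, the 51 of DNA replication and mitosis, and the 25 matrix genes. The central line marks equal breadth and the dotted lines 1000 bp either way: 32 of the 43 muscle genes lie above the upper line and 44 of the 51 cell cycle genes below the lower.

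Muscle genes that were already marked in myoblasts widened in myotubes. Of the 69 muscle-list genes marked in both, 39 widened and 2 narrowed, with a median change of 1537 bp, against 8.01% and 12.7% and -257 bp for all genes. With a window of 2 kb 15 of the 69 widened, and with the stronger 50% of both lists 25 of 50. The widening was strongest in the structural lists: all 8 Z-disc genes widened (median 2350.5 bp), as did 6 of 8 coupling genes (2214.5), 6 of 8 junction genes (2774.5), 3 of 4 thick filament genes (3802), 3 of 4 thin filament genes (3625) and 6 of 11 dystrophin complex genes (1433). These 6 medians were above 0 under each alternative that gave a value, but within 2 kb they came to 461.5 bp for the Z-disc, 196 for coupling, 644.5 for the junction, 1197 for the thick filament, 1759.5 for the thin filament and 264 for the dystrophin complex. The energy list widened at 3 of 8 genes (381 bp), among them Fabp3, a fatty acid carrier, with 1251 bp at day 0 and 3304 in myotubes. Myogenic factors widened at 4 of 11 (436 bp), their median being -3 bp with a window of 2 kb. Fusion genes marked in both did not widen: 0 of 7, with a median of -144 bp that turned to 213 bp under the scaled breadths.

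Single genes show the size of these changes. Titin, Ttn, the molecular ruler of the sarcomere, had 1357, 3359, 7368 and 2043 bp. Where day 0 had 2 promoter peaks, of 252 and 1105 bp, myotubes had 1 of 8606 bp (chr2:76976309-76984914). Ldb3, which crosslinks actinin at the Z-disc, had 2013, 2567, 6788 and 1776 bp. Myotubes stood alone above the other 3 libraries at Ldb3, and at Ttn day 1 lay between. Mylk2, the myosin light chain kinase of skeletal muscle, had 1095, 415, 7068 and 1855 bp. Ryr1, the calcium release channel, had 1223, 1967, 5136 and 1149 bp, and Hrc, a calcium-binding protein of the reticulum, 3701, 4614, 8943 and 4111 bp. Genes of the junction and the membrane did likewise. Chrnd, the δ subunit of the acetylcholine receptor, had 2136, 2289, 6361 and 2661 bp. Ache, which splits acetylcholine, had 513, 0, 4165 and 218 bp. Dag1, dystroglycan, had 3109, 3963, 6088 and 4351 bp. At all 6 genes myotubes stood above the 3 other libraries. Mylpf, the fast regulatory light chain, had 4503, 8248, 8968 and 5046 bp and Tnnc1, slow troponin C, 3346, 7540, 8971 and 6627 bp, so both were already wide at day 1.

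**Figure D4:**
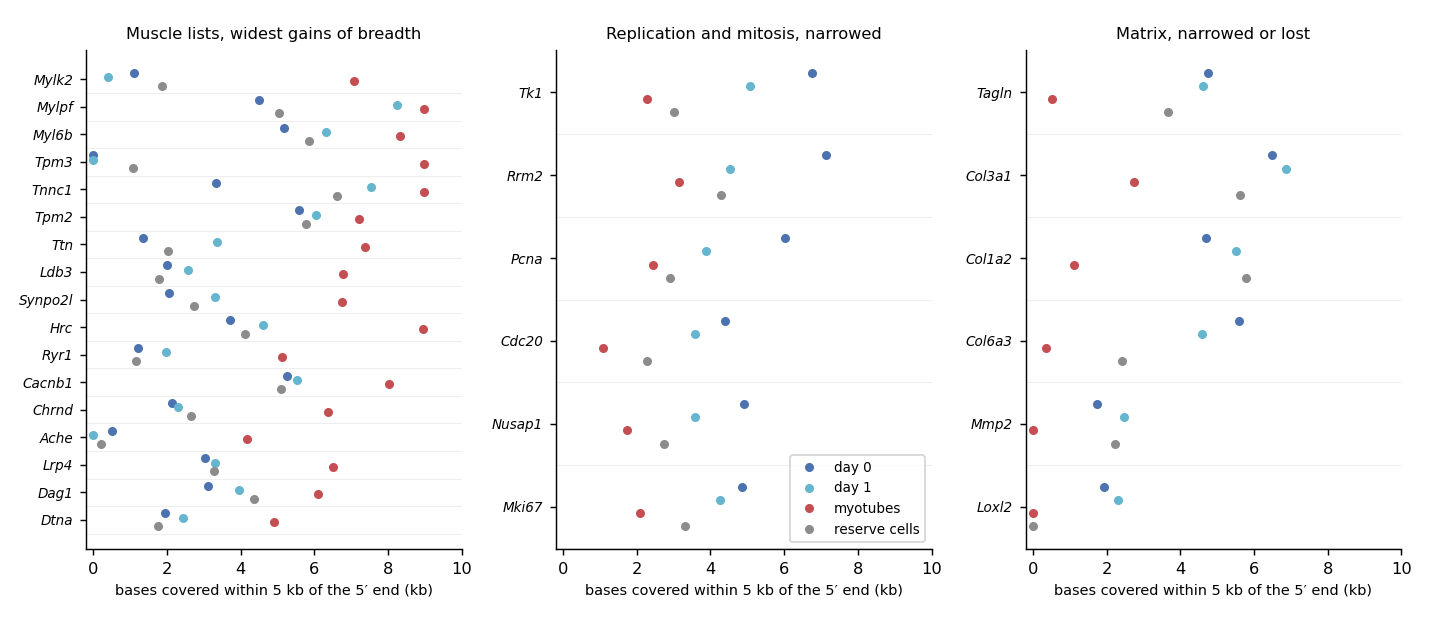
Bases covered within 5 kb of the 5′ end (kb) in each of the 4 H3K4me3 libraries for genes that widened most in 6 muscle lists (left), that narrowed most in the replication and mitosis lists (middle) and that narrowed most or were lost in the matrix list (right). Each point is 1 library: myotubes are highest at all the muscle genes and lowest at the cell cycle genes.

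The added coverage ran into the gene. Of the 966 widened promoters 77.5% had the larger change downstream of the 5′ end, where the median change was 1396.5 bp against 202.5 bp upstream. Of the 1527 narrowed promoters 74.3% had it downstream (-1016 bp, against -396 upstream), and of all promoters marked in both 64.3%. At 3000 bp into the gene, 17.1% of widened genes were covered at day 0 and 63.6% in myotubes, while 1000 bp upstream it was 33.3% and 44.6%. The 43 genes of the 6 structural muscle lists had 32.6% covered at 3000 bp at day 0 and 81.4% in myotubes. The 51 replication and mitosis genes showed the reverse close to the start: 96.1% were covered at 1000 bp into the gene at day 0 and 35.3% in myotubes, with 50 of the 51 covered at the 5′ end itself in both.

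**Figure D5:**
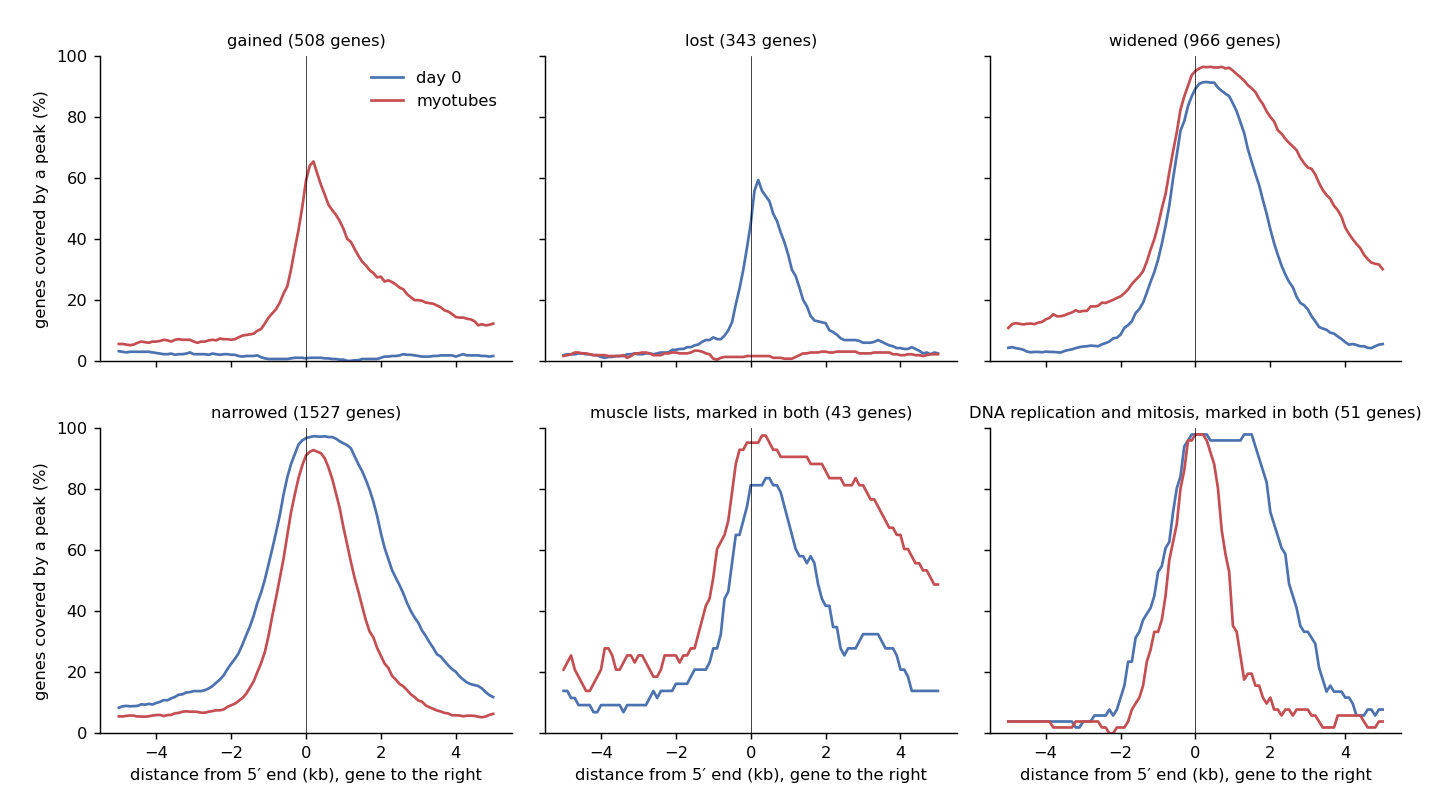
Share of genes (%) covered by an H3K4me3 peak at each distance from the 5′ end (kb, gene body to the right) at day 0 and in myotubes, for gained, lost, widened and narrowed genes, whose groups were defined by these values, and for 2 sets of list genes marked in both. At 3000 bp into the gene 81.4% of the muscle genes were covered in myotubes against 32.6% at day 0, and at 1000 bp 35.3% of the cell cycle genes against 96.1%.

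Cell cycle genes kept their mark but in a narrower form. All 26 DNA replication genes were marked in both libraries, and 20 narrowed, 1 widened, with a median change of -1341 bp. Of 26 mitosis genes 25 were marked in both, and 24 of these narrowed and none widened, with a median of -2101 bp. After scaling to the overall median, 15 replication and 23 mitosis genes narrowed. Replication genes copy the genome and supply its building blocks. Tk1, thymidine kinase, had 6752, 5069, 2288 and 3020 bp, a region it shares with the divergent gene Afmid. Rrm2, a subunit of ribonucleotide reductase, had 7143, 4539, 3134 and 4292 bp, and Pcna, the sliding clamp, 6028, 3879, 2451 and 2895 bp. In each the order was day 0, day 1, reserve cells, myotubes. The widened gene was E2f2, a transcription factor of the E2F family, with 4102 and 5260 bp.

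Mitosis genes drive and check chromosome segregation. Cdc20, the activator of the anaphase-promoting complex, had 4401, 3594, 1097 and 2266 bp. Its day 0 peak (chr4:118434168-118438568) shrank to 1097 bp around the start (chr4:118436971-118438067). Nusap1, a spindle-associated protein, had 4923, 3592, 1731 and 2742 bp, and Mki67, the proliferation antigen Ki-67, 4855, 4265, 2089 and 3320 bp. Here too myotubes were lowest and reserve cells next. The smallest change among the 25 was -880 bp, so no mitosis promoter marked in both was wider in myotubes.

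The mitosis and replication promoters were CpG-rich, with a median observed to expected CpG of 0.88 and 0.91. The letters TTTGAA, the core of the cell cycle homology region bound by the DREAM complex, were in 57.7% of mitosis promoters, 7.69% of replication promoters and 16.1% of all promoters. CCAAT was in 76.9%, 69.2% and 38.9%, and GGCGGGAA, an E2F-type sequence, in 0%, 19.2% and 2.97% of the 3 groups. Over all 1527 narrowed promoters the shares were 17.8% for TTTGAA, 44.6% for CCAAT and 6.42% for GGCGGGAA. The 250 bases upstream of the RefSeq starts of Cdc20 (chr4:118437344-118437593, minus strand) and Nusap1 (chr2:119618048-119618297, plus) are shown as the narrowed mitosis promoters of largest change in the sequence table, the mitosis list being picked after its values were seen. Ccnb2 (chr9:70421555-70421804, minus), the lost one, was added after its values were seen. All are on GRCm38.p6, with CCAAT and TTTGAA on either strand in capitals, which were in 35.8% and 14.5% of all windows of this length.
Cdc20: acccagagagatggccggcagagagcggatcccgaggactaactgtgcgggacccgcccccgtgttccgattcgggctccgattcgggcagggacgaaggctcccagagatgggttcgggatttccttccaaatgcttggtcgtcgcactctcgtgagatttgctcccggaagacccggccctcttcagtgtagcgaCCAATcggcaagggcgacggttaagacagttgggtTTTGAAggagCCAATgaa
Nusap1: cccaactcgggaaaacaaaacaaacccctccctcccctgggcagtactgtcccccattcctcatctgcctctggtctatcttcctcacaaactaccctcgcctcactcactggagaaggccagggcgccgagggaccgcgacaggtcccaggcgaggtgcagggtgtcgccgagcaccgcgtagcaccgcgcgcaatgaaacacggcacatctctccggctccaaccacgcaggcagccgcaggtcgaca
Ccnb2: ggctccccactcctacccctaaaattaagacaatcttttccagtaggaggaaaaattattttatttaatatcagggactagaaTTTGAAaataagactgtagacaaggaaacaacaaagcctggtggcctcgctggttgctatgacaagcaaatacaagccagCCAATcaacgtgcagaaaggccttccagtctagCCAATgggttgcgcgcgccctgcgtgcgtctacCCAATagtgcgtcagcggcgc

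Cdc20 held 2 CCAAT and 1 TTTGAA, Ccnb2 held 3 and 1, and Nusap1 neither, although its breadth changed as far.

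Growth regulators and cell cycle inhibitors were mixed. By the bases covered within 5 kb, Ccnd1, cyclin D1, which drives entry into the cycle, narrowed more than any other of the 12059 genes. It had 8282, 5988, 2114 and 4767 bp, and in myotubes nothing upstream of the start was covered, where 3730 bp had been. This rank depends on the window, which cuts off wider peaks. The widest promoter peak at Pax7 went from 15720 bp at day 0 to 4326 in myotubes, a larger fall than at Ccnd1. Ccnd2, cyclin D2, had 5009, 4010, 2118 and 1757 bp. The list of D cyclins and growth signalling narrowed at 6 of 15 genes and widened at none, with a median of -457 bp that came to -11 bp after scaling. Genes of cell cycle exit were all marked in both, and 2 of 14 widened and 2 narrowed (median 4.5 bp, and -206 bp with peaks of a fold of 5 or more). Cdkn1a, the inhibitor p21, had 3506 and 5013 bp, and Rb1, the retinoblastoma protein, 3085 and 4108 bp. Cdkn1b, the inhibitor p27, narrowed from 8051 to 6056 bp, and the retinoblastoma relative Rbl1 from 3185 to 1978 bp. The list thus had members in both directions.

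Matrix and fibroblast genes narrowed too. Of 25 marked in both, 17 narrowed and none widened, with a median of -2028 bp. Tagln, an actin-binding protein of smooth muscle, had 4764, 4604, 511 and 3674 bp. Col3a1, fibrillar collagen III, had 6495, 6865, 2740 and 5626 bp, and Col1a2, a chain of collagen I, 4711, 5518, 1122 and 5793 bp. At these 3 genes myotubes stood apart below the other 3 libraries, which is unlike Tk1, Rrm2 and Pcna, where reserve cells lay nearer to myotubes than to day 0. The list's narrowed count was 10 in the stronger 50% of each list and 12 with a window of 2 kb.

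Signalling lists stayed near the overall median, with single genes far from it. The medians were -98 bp for the TGF-β and BMP list, -93 for satellite and reserve cell genes, -80.5 for Wnt, -311.5 for Notch and -2 for AP-1 and immediate early genes. Against the overall -257 bp none stands far off, and after scaling all of these but Notch were above 0. Pax7, the satellite cell factor, narrowed from 8340 to 4636 bp, with 8318 at day 1 and 8084 in reserve cells. Spry1, an inhibitor of receptor tyrosine kinase signalling, widened from 2223 to 5509 bp, and Dll1, a Notch ligand, from 2563 through 5326 at day 1 to 6140 bp. Fst, the myostatin inhibitor follistatin, widened from 4202 to 7102 bp, and Nr4a1, an orphan nuclear receptor, from 1998 to 5696 bp. Fosl1, an AP-1 subunit, narrowed from 6157 to 2819 bp. Id3, an inhibitor of basic helix-loop-helix factors, narrowed from 8676 to 5727 bp, and Notch3, a receptor, from 3701 to 1892 bp. Of 20 housekeeping genes none widened and 2 narrowed (median -323.5 bp, and 1.94 bp after scaling). Gapdh, a glycolytic enzyme, had 6230 and 6306 bp, and Actb, cytoplasmic β-actin, 8794 and 8127 bp.

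Of the lists from other lineages, 20 genes were marked in both, of which 0 widened and 5 narrowed, beside 8.01% and 12.7% of all genes, too few to set the lists apart. The neuronal list narrowed at 3 of 9 genes, with 2 lost and 2 gained. Tubb3, neuronal β-tubulin, had 5656 bp at day 0 and 1318 in myotubes, and Nefl, the light neurofilament, 3781 and 1143 bp. Gap43, a growth cone protein, was lost from 2205 bp. The fat, bone and cartilage list narrowed at 2 of 8 genes, among them Sox9, the chondrocyte factor (4597 and 3201 bp). The 3 endothelial genes marked in both had a median of -454 bp.

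Over all protein-coding genes marked in both, predicted genes passed over, the largest changes of breadth joined muscle genes with others. The genes that widened most included Tpm3, a tropomyosin and the first by size, and Mef2c, a MEF2 factor. About their 5′ ends coverage was 0 bp at day 0, and 8979 and 6870 bp in myotubes, while a start elsewhere in the gene was marked at day 0. At Tpm3 the myotube peak over the 5′ end also overlapped the day 0 peak, whereas at Mef2c it lay apart from it. Palld, an actin-organising protein, had 0 and 6009 bp, with a peak apart as at Mef2c. Ppfia4, a liprin scaffold protein, had 380 bp at day 0 and 7348 in myotubes, and Mtss1l, a membrane-bending protein, 2559 and 9497 bp. Grtp1 had 2413 and 9262 bp, Afap1l1 491 and 7051 bp, Foxo6, a forkhead factor, 3551 and 10001 bp, and Pbxip1, which binds PBX factors, 2401 and 8478 bp. At Foxo6 the whole window was covered in myotubes. After Ccnd1, the genes that narrowed most were of several kinds. Pdgfc had 7469 and 1855 bp, Ereg, epiregulin, 6087 and 1334 bp, and Clcf1, a cytokine, 8758 and 3970 bp. Plaur, the urokinase receptor, had 6905 and 1647 bp, Ltbp2, a TGF-β binding protein, 8835 and 3614 bp, and Bend6 8804 and 4315 bp.

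Day 1 and reserve cells, measured against the same day 0 library, placed these changes differently. Of the 966 widened promoters 46.6% were wider than day 0 at day 1 and 21.8% in reserve cells, against 2295 and 661 of the 12059 promoters marked in both. Of the 1527 narrowed promoters 93.7% were narrower at day 1 and 98.3% in reserve cells, against 77.8% and 91.5% of all. Among unmarked genes 1.75% were gained at day 1 and 1.41% in reserve cells.

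Away from promoters, each library had peaks of its own. Of the 9444 myotube peaks without a day 0 match 12.2% lay at promoters, and of the 3016 day 0 peaks without a myotube match 18.9%, against 72.1% and 73.4% of shared peaks. The 8291 myotube peaks away from promoters were short and weak, with a median width of 450 bp and a median fold of 4.50, and 65.4% had their summit in an intron. The 2446 at day 0 had 467.5 bp, a fold of 4.85 and 53.8% in introns. Of all myotube-only peaks 5.95% were seen at day 1 and 3.40% in reserve cells, whereas of day 0-only peaks 37.4% and 18.2% were. The strongest myotube-only peak away from promoters was intronic (chr8:32151156-32153722, fold 55.8) and was also called at day 1. Its nearest coding start, 141705 bp away, was that of Nrg1, a growth factor gene of nerve and muscle. Next came 1 in an intron, 18629 bp from Lgr6, a receptor of Wnt-enhancing ligands (chr1:135082870-135086647, fold 53.1). At day 0 the strongest lay in an intron, with Tns1, an adhesion protein, as the nearest coding gene at 74425 bp (chr1:74012229-74016926, fold 80.3). It was also called at day 1 and in reserve cells.

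Myotube-only peaks collected inside muscle genes. Of the 144 muscle-list genes 62 (43.1%) had at least 1 such peak away from promoters within the gene, against 13.8% of all protein-coding genes. A day 0-only peak lay in 12 of them (8.33%, against 4.72%). Of the 144, only 7 were marked in neither library, and marked genes held such peaks more often. Over all protein-coding genes the myotube-only share was 20.8% of those marked in both, 26.4% of those gained and 3.93% of those marked in neither. The day 0-only share was 6.84% of those marked in both. Myom3, Neb, the thin filament ruler nebulin, Utrn, the dystrophin relative utrophin, and Jph2, which couples surface and reticulum membranes, had 6 each. These genes differ in length, from 55.9 kb for Myom3 to 487 kb for Utrn, and longer genes have more room for a peak. In 300 bases about the summit, CAGCTG was in 23.2% of all 8291 myotube-only peaks away from promoters and 18.2% of the 2446 day 0-only peaks, and the MEF2 motif in 4.93% and 2.66%. The AP-1 sequence TGANTCA was in 12.4% and 16.8%. Distal peaks that were shared had 21.7% and 20.6% for CAGCTG at day 0 and in myotubes, and 3.13% and 2.34% for the MEF2 motif. For TGANTCA they had 12.7% and 14.9%.

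MBD2 at day 0 was set beside these promoters. Of the 508 gained genes 18 had an MBD2 promoter peak at day 0, among them Klhl41 and Stac3, and of the 343 lost genes 13 had one. The gained share, 3.54%, stood beside 0.791% of the 9353 genes unmarked at day 0 (74 genes), and the lost share, 3.79%, beside 2357 of the 12402 genes marked at day 0. Among promoters marked in both, 24.3% of the widened and 22.1% of the narrowed had MBD2 at day 0, beside 19.4% of all.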

How the data were processed

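The series holds 12 CUT&RUN libraries of C2C12 cells, and 6 H3K4me3 and MBD2 peak lists enter here. Per the submitters' processing notes, reads were trimmed with Trim Galore, mapped to mm10 with Bowtie2, filtered with SAMtools and called with MACS2. Neither versions, settings nor any use of the IgG libraries for peak calling were stated (not given in the sources used here). Per the file headers each list gives a peak's position, pileup signal at the summit, −log10 p, −log10 q and fold enrichment over local background as the authors' caller made them, and these values were used to describe and rank peaks within a list. The deposited lists hold no read counts, so the depth is unknown.

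Peaks on chromosomes 1 to 19 and X were set against GENCODE M21 basic transcripts on GRCm38, whose sequence is that of mm10. A promoter reached 1 kb either side of any transcript start, breadth 5 kb either side of the most upstream 5′ end, and a difference of 1000 bp or more was called. Each of 25 gene lists gave up to 3 genes per kind of change (gained, lost, widened, narrowed), all protein-coding genes gave 10 per kind, and each library 5 peaks per kind. Lists and members were chosen with earlier results of these data known. Intervals on shares are exact Clopper-Pearson, and that on the median change is over genes. No differential test was possible with 1 library per group. The steps were tested on simulated peak lists, and 12 alternative settings were run. Python 3.11.15, pandas 2.3.3, numpy 2.4.6, scipy 1.17.1 and matplotlib 3.10.9 were used. Sequence features were read from GRCm38.p6, and 11952 of 21755 coding genes had a RefSeq promoter entry in use within 100 bp of the 5′ end. Entries on chromosome 18 were left out of this count and of the printed sequences. The table's entries for Stac3, Mymx, Hfe2 and Ccnd1 were not matched. The values of some genes that the naming rule takes are not reported here.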

Additional observations from a re-analysis of the deposited data

How the results depend on the processing

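No paired analysis was possible because each group is 1 library, and for the same reason no replicate could be left out. The share of peaks found in the other list was 78.7% of day 0 and 78.9% of myotube peaks with equal numbers of peaks, 98.8% and 73.6% with the stronger 50% of both lists, 85.3% and 77.6% at a fold of 5 or more, 85.9% and 68.4% with peaks within 1000 bp joined, and 77.6% and 59.4% when 50% of a peak had to be covered. Genes lost were 524 with equal numbers of peaks. With the stronger 50% of each list 1617 were gained and 97 lost. That setting kept 9603 day 0 and 13012 myotube peaks, so the day 0 list was the shorter. The part of this inequality in these counts and in the shares of 98.8% and 73.6% was not tested. The median change of breadth was -275 bp with equal numbers of peaks, -283 bp for the stronger 50%, -274.5 bp at a fold of 5 or more, -194 bp within 2 kb, 0 bp by construction when scaled, and -294 bp for the widest promoter peak. Within 2 kb 194 genes widened and 695 narrowed, and with scaled breadths 1562 and 984. Of the recomputed main values 23 moved by more than their error or 1.5 times, and 25 did not. Signs turned for the scaled medians of the fusion, AP-1, TGF-β, satellite cell, Wnt and housekeeping lists (1.94 to 641 bp), for myogenic factors within 2 kb (-3 bp), for cell cycle exit (-206 bp at a fold of 5 or more), and at Actb (251 bp scaled) and Myf6 (535 bp within 2 kb). The cause of these shifts was not tested. Muscle genes gained were 64 to 78 throughout. Depth is unknown, so weak peaks missing from a list may be below its reach.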

Other observations

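Some broad day 0 domains were broken into several peaks in myotubes, picked out after their values were seen. The domain over Dlx2, a homeodomain factor gene (chr2:71537536-71548044, 10509 bp), met 5 myotube peaks that covered 62.9% of it. The domain beside Nfix, a nuclear factor I gene (chr8:84777083-84785852, 8770 bp), met 5 that covered 50.6%. In the other direction the myotube peak over Uba3, which encodes an enzyme of NEDD8 conjugation (chr6:97203397-97223241, 19845 bp), joined 4 day 0 peaks that covered 58.4% of it. The myotube peak over Vsir, an immune checkpoint gene (chr10:60346904-60352389, 5486 bp), joined 4 that covered 57.0%.

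Outside the muscle lists, Nfix, Bri3 and Sh3pxd2a, an adaptor of invasive adhesions, each held 16 myotube-only peaks away from promoters, the most of any protein-coding gene other than 2 predicted genes. Their bodies span 100.5, 202 and 204 kb. The annotated body of Bri3 contains the whole of Baiap2l1, which held 13 such peaks, so these count for both genes. Among protein-coding genes other than predicted ones, day 0-only peaks were most frequent in Zmiz1, a transcriptional coregulator, with 8 at day 0 and 1 in myotubes. Over all 53843 annotated genes, coding and not, 1012 were gained and 650 lost.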
